A study of Mus musculus with 9 samples.

Results

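The comparison sets 3 libraries of mouse bone marrow-derived macrophages treated for 12 h with IL-4 (interleukin-4) at 20 ng/ml against 3 libraries of untreated macrophages. These are 6 of the 9 libraries in the series, chosen by their labels, and the other 3, from macrophages given IL-27 (100 ng/ml for 6 h), entered the fit only to share the estimate of spread between libraries. The labels describe all cells as WT macrophages grown to day 6 in medium with supernatant of L929 cells, a fibroblast line that secretes macrophage growth factor. Strain, sex and age of the mice were not in the labels. The design text calls the 3 libraries of a group replicate experiments and does not say whether each had its own animal or dish. The p-values therefore speak only to the spread among these 9 libraries, which may be technical. PolyA RNA was counted for 16200 genes, and the 12587 genes with enough counts were tested.

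IL-4 binds a receptor made of Il4ra and a partner chain, and the kinases bound to that receptor phosphorylate STAT6, which moves to the nucleus as a dimer. STAT dimers bind palindromes of TTC, a short spacer and GAA, and STAT6 is known for accepting a spacer of any 4 bases. In macrophages this pathway drives the state called alternative activation, known for arginine catabolism, lectin receptors, secreted chitinase-like and resistin-like proteins and cell fusion.

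Total counts ran from 34577188 to 37951827 per library. Levels are CPM (counts scaled to a common library size, adjusted by TMM factors), written as mean ± SD over n = 3 libraries. Differences are log2 fold changes of IL-4 over untreated with a standard error (SE) from edgeR's quasi-likelihood test. A gene was called, and is said to have risen or fallen, at a Benjamini-Hochberg adjusted p under 0.05 over the 12587 genes. All 10 macrophage markers were present, at a summed level of 23457 to 32238 CPM untreated and 14899 to 18618 CPM after IL-4. Much of this sum, and of its drop, was Lyz2, whose values are given below with the largest losses. Of the 10 markers, Fcgr1, Mertk, Lyz2, Aif1 and Cd14 fell, while Adgre1, Cd68, Csf1r, Itgam and Spi1 were not called. In bulk RNA, fewer cells of a type and less RNA per cell cannot be told apart. Markers of mast cells or basophils summed to 1.09 to 1.51 CPM untreated and 1.58 to 2.32 CPM after IL-4. Of their 2 tested members 1 rose and 0 fell, and the part of such cells was not tested. Markers of fibroblasts summed to 694 to 787 CPM untreated and 518 to 720 CPM after IL-4, with no member called of 6 tested. Endothelial markers summed to 85.4 to 143 CPM and 147 to 265 CPM, nearly all of it Vwf, which rose while Kdr fell, and their part in the results below was not tested.

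Untreated replicate 2 and IL-4 replicate 1 stood apart from the other libraries of their groups. Their deviations from the group means went together across 9553 genes (r = 0.900, across genes, which are not independent replicates). A second fit therefore carried a term that marks these 2 libraries (the library term). Counts from it are given in brackets below, next to those of the fit without it.

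IL-4 raised and lowered genes in nearly even numbers, and the largest changes were rises. Of the 12587 genes, 1630 rose (12.9%) and 1515 fell (12.0%), together 3145 genes (25.0%). With the library term 3532 rose (28.1%) and 3283 fell (26.1%), together 6815 (54.1%), and leaving both libraries out gave 3061 and 2848. All but 1 of the 3145 genes were also called with the term, in the same direction. The 3671 genes called only with the term had a median change of 0.28 in absolute log2, against 0.72 for the 3145. Changes of at least 2-fold were reached by 499 genes that rose (3.96%) and 430 that fell (3.42%), and with the library term by 562 (4.46%) and 516 (4.1%). At 8-fold or more there were 65 rises and 30 falls, and at 16-fold or more 40 and 11. In the share of all counts, the 499 genes went from 1.27 to 1.32% in the untreated libraries to 3.79 to 3.82% in the IL-4 libraries. The 430 genes went from 4.87 to 5.01% to 2.12 to 2.19%. These genes were chosen by their change in the same libraries, which fixes the direction of both shares.

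**Figure D1:**
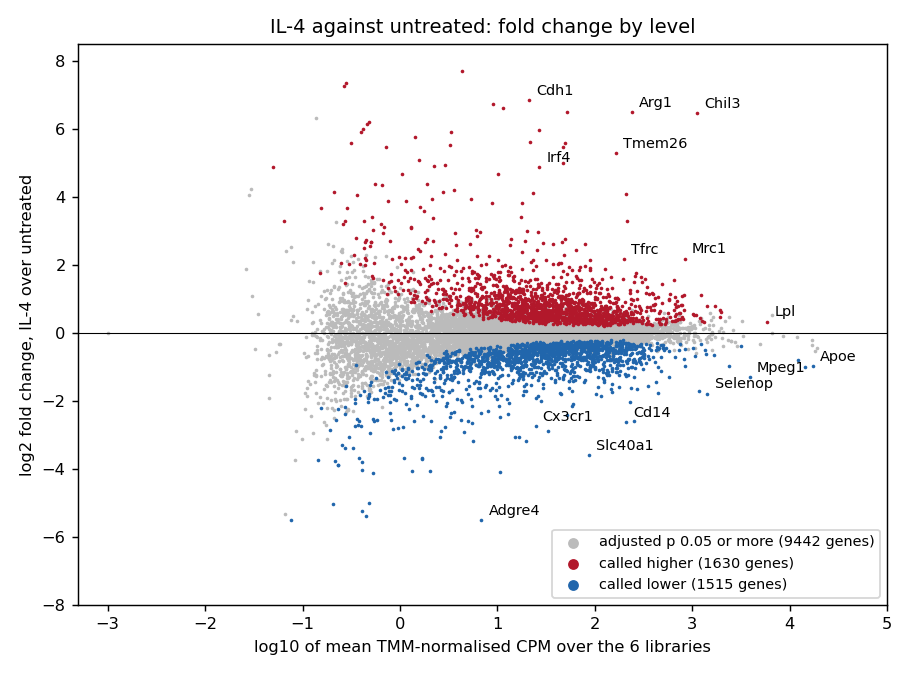
Log2 fold change of IL-4 over untreated (vertical axis) by log10 of the mean CPM over the 6 libraries (horizontal axis) for 12587 genes, with 1630 called higher in red and 1515 called lower in blue. The points above 4 on the vertical axis outnumber those below -4, and abundant genes such as Apoe, Mpeg1 and Selenop lie on the lower side.

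The 20 genes that rose most included secreted proteins, surface receptors and enzymes, and all but Chil3 and Slc7a2 were under 10 CPM untreated. Cdh1, the adhesion molecule E-cadherin, stood at 0.501, 0.271 and 0.307 CPM in the untreated libraries and 48.2, 39.4 and 38.6 CPM in the IL-4 libraries. Pdcd1lg2, a ligand of the inhibitory receptor PD-1, stood at 0.834, 0.904 and 0.781 CPM in the untreated libraries and 52.7, 48.2 and 57.5 CPM in the IL-4 libraries. In both genes every IL-4 library lay far above every untreated library. Cdh1 rose 115-fold (log2 6.85 ± 0.28, edgeR adjusted p = 2.97e-07) and Pdcd1lg2 62.7-fold (5.97 ± 0.15, adjusted p = 3.13e-08).

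Several of the largest rises lie outside the usual marker panels. Tmem26, a membrane protein best known as a marker of beige fat cells, was measured at 8.01, 6.96 and 9.74 CPM in the untreated libraries and 307, 344 and 309.8 CPM in the IL-4 libraries. The lowest IL-4 library was more than an order of magnitude above the highest untreated library, a rise of 38.9-fold (log2 5.28 ± 0.16, adjusted p = 7.41e-08). Per length, Tmem26 went from 1.61 ± 0.355 to 64.1 ± 6.83 FPKM. Ocstamp, a membrane protein required for fusion of osteoclasts and foreign body giant cells, was at 3.11, 2.53 and 3.04 CPM untreated and 107, 82.6 and 85.9 CPM after IL-4. The groups did not overlap, and IL-4 replicate 1 was the highest of the 6. Ocstamp rose 31.7-fold (log2 4.99 ± 0.20, adjusted p = 2.97e-07).

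Lipn, a lipase of the lysosomal acid lipase family, stood at 2.70, 2.29 and 2.54 CPM in the untreated libraries and 38.5, 51.3 and 41.4 CPM in the IL-4 libraries, a rise of 17.4-fold. Map2, a microtubule-associated protein best known from neurons, stood at 1.03, 0.241 and 1.004 CPM untreated and 14.96, 20.4 and 22.9 CPM after IL-4. Untreated replicate 2 was the lowest library for Map2 and the groups were widely separated, with a log2 change of 4.66 ± 0.47. Il1rl1 encodes ST2, the receptor for IL-33, and rose from 0.643 ± 0.262 to 10.02 ± 1.89 CPM. Chst7, a sulfotransferase acting on glycosaminoglycans, rose 14.1-fold, from 1.15 ± 0.186 to 16.3 ± 0.866 CPM. Flt1, the VEGF receptor also called VEGFR1, rose 44.3-fold, from 2.06 ± 0.546 to 91.6 ± 5.05 CPM, and Il31ra, a receptor chain for IL-31, from 0.164 ± 0.0787 to 17.7 ± 2.62 CPM. Irf4, a transcription factor of the interferon regulatory factor family, rose from 1.77 ± 0.629 to 52.02 ± 1.99 CPM, a log2 change of 4.88 ± 0.23.

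Rnase2a and Ear2 encode related ribonucleases of the eosinophil-associated family, whose near-identical members could share reads, so their values are uncertain. Ear2 stood at 3.14, 3.70 and 2.01 CPM untreated and 39.02, 34.5 and 21.3 CPM after IL-4. IL-4 replicate 3 was the lowest IL-4 library for Ear2, and also for Rnase2a (0.0834, 0.241 and 0.363 CPM untreated and 29.8, 23.1 and 14.9 CPM after IL-4) and Retnla (1.56, 1.02 and 0.809 CPM untreated and 116, 112 and 79.1 CPM after IL-4). Of the 2 eosinophil markers tested, Ccr3, the eotaxin receptor, rose (3.25 ± 0.352 to 8.45 ± 2.85 CPM) and Siglecf was not called (41.1 ± 1.44 to 40.3 ± 6.38 CPM), and the summed level of the list was 43.4 to 45.8 CPM untreated and 43.7 to 52.6 CPM after IL-4. The part of such cells was not tested.

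**Figure D2:**
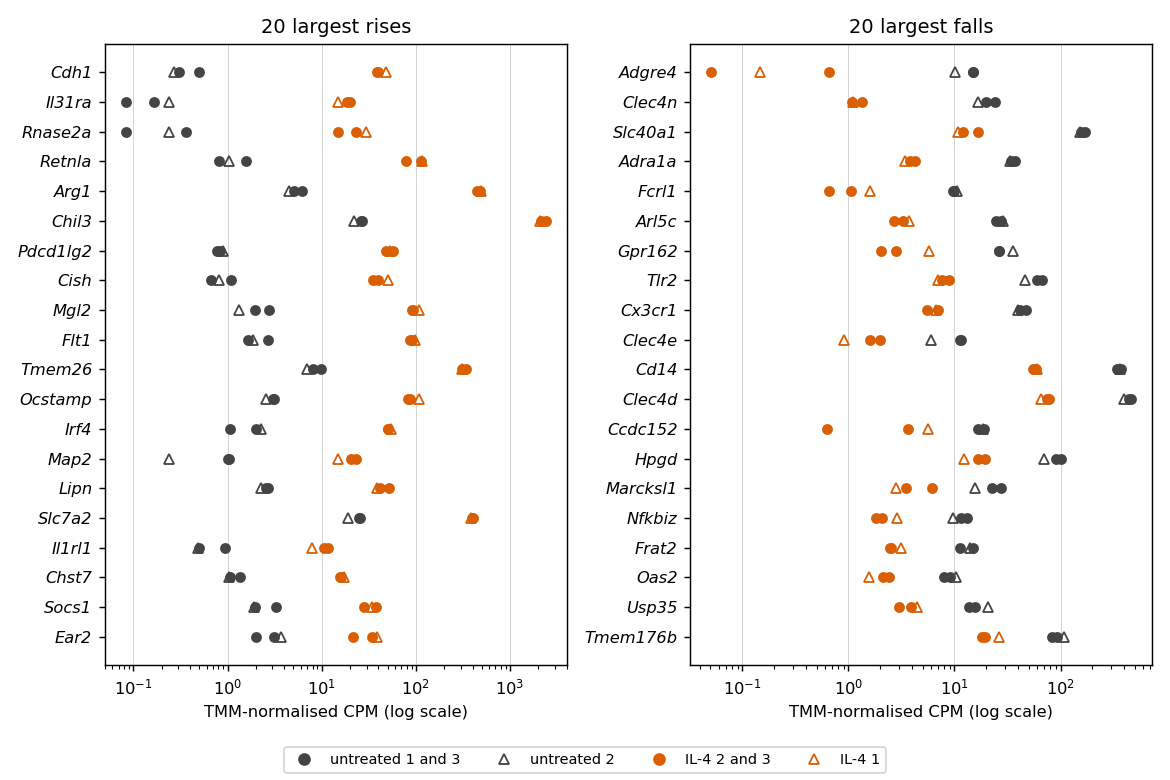
CPM (log scale, horizontal axis) in each of the 3 untreated (grey) and 3 IL-4 libraries (orange) for the 20 genes with the largest rises (left) and the 20 with the largest falls (right), triangles marking the 2 libraries that stand apart. In all 40 genes the groups do not overlap, as the rule for naming them required. Some triangles lie away from the circles of their own group, such as that of untreated replicate 2 in Map2 and Clec4e.

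Promoters of the 20 largest rises were searched for the spacer form known for STAT6, and those that hold it are shown with the matches in capitals. The windows are the 250 bases before the RefSeq start of each gene (build GRCm38.p6), 5′ to 3′ on the gene's strand. The motif searched was TTC, then any 4 bases, then GAA, which is its own reverse complement, so both strands are covered. The window of Retnla lies at chr16:48842359-48842608, that of Pdcd1lg2 at chr19:29410669-29410918 and that of Tmem26 at chr10:68723496-68723745, all on the plus strand.
Retnla: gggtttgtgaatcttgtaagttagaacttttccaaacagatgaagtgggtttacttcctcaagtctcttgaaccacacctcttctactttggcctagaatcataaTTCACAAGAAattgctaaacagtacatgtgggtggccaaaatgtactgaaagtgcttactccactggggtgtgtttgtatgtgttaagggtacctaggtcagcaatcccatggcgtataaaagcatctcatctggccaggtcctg
Pdcd1lg2: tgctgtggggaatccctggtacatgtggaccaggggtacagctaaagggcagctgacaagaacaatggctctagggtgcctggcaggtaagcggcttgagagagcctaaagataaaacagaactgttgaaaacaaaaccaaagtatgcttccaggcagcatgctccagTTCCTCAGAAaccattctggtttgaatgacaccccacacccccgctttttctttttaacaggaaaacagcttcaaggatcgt
Tmem26: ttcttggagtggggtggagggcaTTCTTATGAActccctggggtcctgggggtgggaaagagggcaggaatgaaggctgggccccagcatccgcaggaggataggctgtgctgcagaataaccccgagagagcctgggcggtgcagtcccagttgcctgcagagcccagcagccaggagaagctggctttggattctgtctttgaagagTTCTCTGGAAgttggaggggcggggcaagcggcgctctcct

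The match in Retnla (TTCACAAGAA) starts 145 bases before the gene's start, that in Pdcd1lg2 (TTCCTCAGAA) 82 bases before it, and Tmem26 has 2 matches, at 227 and 41 bases. A match describes these letters only, and binding was not measured. Among the 20 largest rises, 16 had a window in the table and 3 of 17 windows held the motif (17.6%). Among the 20 largest falls, 12 had a window and 1 of 14 windows held it (7.14%). Among all tested genes it was in 603 of 12895 windows (4.68%), among genes that rose at least 2-fold in 27 of 492 (5.49%), and among those that fell at least 2-fold in 15 of 417 (3.60%). The form with a spacer of 3 bases (TTCNNNGAA) was in 5.93%, 6.71% and 4.08% of the windows of the same 3 sets, and in 2 of 17 (11.8%) and 0 of 14 windows of the 20 largest rises and falls. None of these differences was tested.

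The 20 largest falls included the lectins Clec4d, Clec4e and Clec4n, the adhesion receptor Adgre4, the iron exporter Slc40a1 and the adrenergic receptor Adra1a. Clec4e and Clec4d encode Mincle and MCL, lectins that pair to recognise mycobacterial glycolipid, and Clec4n encodes Dectin-2, a receptor for fungal mannans. Clec4d, the highest of these per length (FPKM) when untreated, stood at 441, 393 and 466 CPM in the untreated libraries and 65.1, 77.02 and 73.8 CPM in the IL-4 libraries. Clec4e stood at 11.4, 5.96 and 11.4 CPM untreated and 0.909, 1.997 and 1.60 CPM after IL-4, with untreated replicate 2 the lowest of its group. In each gene all IL-4 libraries lay below all untreated libraries, with falls of 6.02-fold for Clec4d, 6.31-fold for Clec4e and 17.1-fold for Clec4n (edgeR adjusted p = 3.09e-07, 2.28e-04 and 7.40e-07). Adgre4, of the F4/80 family, went from 13.4 ± 2.88 to 0.282 ± 0.321 CPM. Slc40a1, ferroportin, the exporter of iron from cells, stood at 158, 152 and 172 CPM untreated and 10.8, 16.6 and 12.1 CPM after IL-4, and Adra1a went from 35.1 ± 2.16 to 3.83 ± 0.423 CPM. Slc40a1 fell 12.2-fold and Adra1a 9.13-fold.

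Hpgd, the enzyme that inactivates prostaglandins, stood at 90.9, 69.5 and 100.1 CPM in the untreated libraries and 12.3, 19.2 and 16.7 CPM in the IL-4 libraries. The groups were clearly apart, a fall of 5.38-fold (log2 -2.43 ± 0.21, adjusted p = 3.15e-05). Cx3cr1, the fractalkine receptor, fell 6.68-fold, from 42.8 ± 4.35 to 6.41 ± 0.782 CPM. Marcksl1, which binds actin and membranes, fell 5.24-fold, from 21.8 ± 5.996 to 4.15 ± 1.80 CPM. Frat2, a GSK3-binding protein of the Wnt pathway, and Usp35, a deubiquitinase, fell 4.94-fold and 4.46-fold. Nfkbiz, a nuclear regulator of NF-kappa B target genes, fell from 11.5 ± 1.71 to 2.24 ± 0.535 CPM. Arl5c, a small GTPase, and Gpr162, an orphan receptor, fell 8.34-fold and 8.33-fold. Fcrl1, a member of the Fc receptor-like family, fell from 10.03 ± 0.536 to 1.11 ± 0.479 CPM, and Oas2, an interferon-induced antiviral enzyme, from 9.08 ± 1.15 to 2.02 ± 0.428 CPM.

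Some of these genes overlap another gene on the opposite strand, and no source used here states the counting strand. Ccdc152 overlaps Selenop, which encodes a selenium transport protein. Ccdc152 went from 18.1 ± 1.18 to 3.31 ± 2.54 CPM and Selenop from 2212 ± 213 to 640.2 ± 115 CPM, and reads of the pair cannot be told apart without strand. The same holds for Tmem176b (94.9 ± 12.8 to 21.4 ± 4.49 CPM) and Tmem176a (28.7 ± 2.07 to 8.78 ± 1.16 CPM), membrane proteins linked to dendritic cell maturation. Tmem176a was chosen after its values were seen. The annotated span of Cx3cr1 also overlaps other protein-coding genes, on both strands.

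Ranked by the gain in CPM rather than by fold change, abundant transcripts came forward. The largest gains in CPM were in Chil3, a secreted chitinase-like protein (24.99 ± 2.73 to 2213 ± 175 CPM), and Lpl, lipoprotein lipase (5198 ± 323 to 6516 ± 400.3 CPM). Lpl was already abundant untreated and rose by 0.33 ± 0.10 on the log2 scale (adjusted p = 0.0343). Next came Mrc1, the mannose receptor (300.1 ± 15.5 to 1366 ± 95.3 CPM), Flna, which crosslinks actin (1264 ± 359 to 2172 ± 665 CPM), and Adam8, a membrane protease (767 ± 183 to 1661 ± 399 CPM). Itgax, the integrin CD11c (1475 ± 227 to 2344 ± 388 CPM), and Cd36, a fatty acid receptor (1541 ± 246 to 2372 ± 517 CPM), followed. Atp6v0a1, a subunit of the vacuolar proton pump, rose from 1039.7 ± 188 to 1813 ± 271 CPM, Clic4, an intracellular chloride channel protein, from 327 ± 10.3 to 958 ± 52.1 CPM, and Spp1, osteopontin, from 1627 ± 52.9 to 2239 ± 103 CPM. Mrc1 and Clic4 had tight libraries. In Adam8, Itgax and Atp6v0a1 untreated replicate 2 and IL-4 replicate 1 were each the highest of their group, though no value crossed between groups. The calls of Lpl, Flna and Cd36 are fragile. Lpl passed the threshold with IL-4 replicate 1 left out but not with any other of the 9 libraries left out (adjusted p 0.0512 to 0.111). For Flna the p was 0.105 without untreated replicate 1, 0.106 without untreated replicate 3, 0.0558 without IL-4 replicate 1 and 0.0512 to 0.0531 without IL-27 replicate 1, 2 or 3 in turn. For Cd36 it was 0.0829 without IL-4 replicate 2 and 0.0696 without IL-4 replicate 3.

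The largest losses in CPM were in abundant transcripts. Apoe, the lipid carrier apolipoprotein E, stood at 19859.7, 27428 and 21633 CPM in the untreated libraries and 13658, 10225 and 11090.1 CPM in the IL-4 libraries. Lyz2, lysozyme, stood at 16557, 23216 and 17038 CPM untreated and 10583, 8889 and 8747 CPM after IL-4, and Fth1, the ferritin heavy chain, at 13184, 18466 and 14007 CPM untreated and 10369, 8094 and 7979 CPM after IL-4. In all 3 genes untreated replicate 2 was the highest untreated library and IL-4 replicate 1 the highest IL-4 library, and the groups still did not overlap. The log2 changes were -0.98 ± 0.15, -1.01 ± 0.15 and -0.79 ± 0.15. More even across libraries were the falls of Mpeg1, the pore-forming protein perforin-2 (5530.0 ± 104 to 2241 ± 119.9 CPM), Selenop (values above), Itm2b, a type II membrane protein (3153 ± 175 to 1589 ± 50.7 CPM), and Cybb, the catalytic subunit of the phagocyte NADPH oxidase (1808 ± 174 to 549.6 ± 67.4 CPM). Slc6a6, the taurine transporter, fell from 2020.5 ± 287 to 1299 ± 159 CPM. Prdx1, a peroxidase, fell from 1689.5 ± 270.4 to 1087 ± 203 CPM with an adjusted p of 0.0139, and of 0.0557 and 0.0511 without untreated replicate 1 and untreated replicate 3. Sirpa, an inhibitory receptor for CD47, fell by 0.40 on the log2 scale (adjusted p = 0.0296). Its p was 0.0551 without untreated replicate 2, 0.0984 and 0.102 without IL-4 replicate 2 and IL-4 replicate 3, and 0.0538 to 0.0559 without IL-27 replicate 1, 2 or 3 in turn.

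Lists of genes with a shared role, 37 in all, were described next by counts, with no test of the lists themselves. The background is 12.9% of all genes rising and 12.0% falling (28.1% and 26.1% with the library term). The median log2 change over all tested genes was -0.01.

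**Figure D3:**
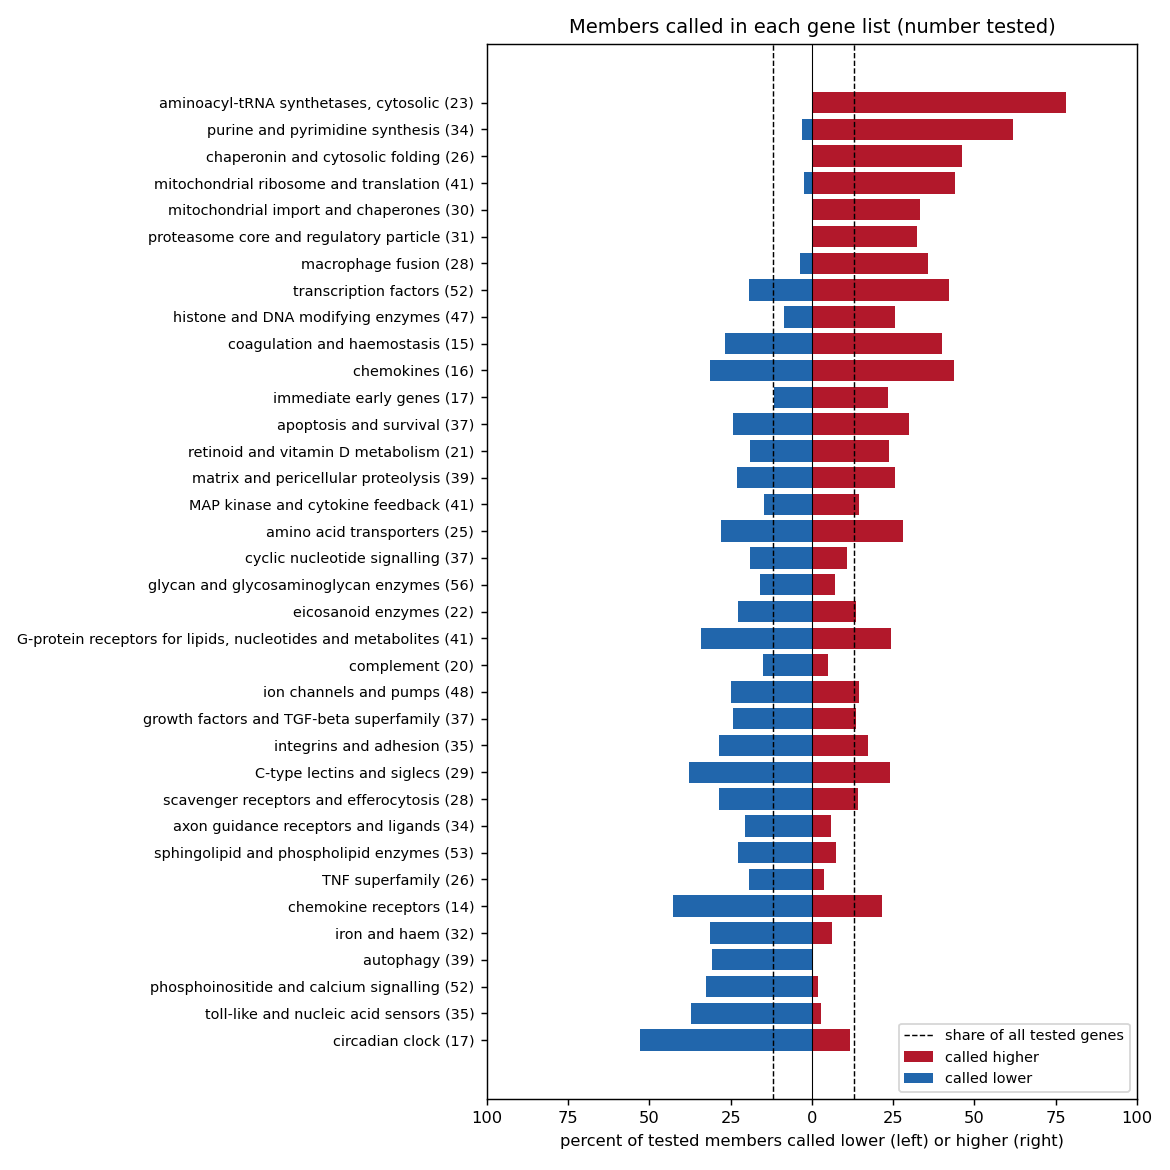
Percent of tested members called lower (blue, left) and higher (red, right) in each gene list shown, with the number tested in brackets and dashed lines at the share of all tested genes (12.0% and 12.9%). Aminoacyl-tRNA synthetases head the plot with 18 of 23 members higher, and the circadian clock closes it with 9 of 17 lower.

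Among 52 transcription factors of macrophage activation, 22 rose and 10 fell (27 and 17 with the library term). Nfil3, a bZIP repressor, stood at 10.7, 9.91 and 10.9 CPM in the untreated libraries and 63.2, 59.7 and 69.3 CPM in the IL-4 libraries, and Klf4, a zinc finger factor linked to alternative activation, at 7.76, 7.86 and 8.82 CPM untreated and 48.6, 52.03 and 51.1 CPM after IL-4. Neither gene overlapped between groups, with rises of 6.10-fold and 6.21-fold (adjusted p = 3.23e-07 and 1.16e-06). Myc, a driver of cell growth, rose 4.13-fold. Batf3, which partners with Irf4 at composite DNA sites, rose from 5.08 ± 0.566 to 33.1 ± 5.54 CPM, Egr2, an early growth response factor, from 179.6 ± 20.6 to 360.4 ± 47.7 CPM, and Pparg, a lipid-sensing nuclear receptor, from 85.4 ± 4.97 to 129.5 ± 3.51 CPM. These 3 were picked after their values were seen. Maf, a large Maf factor of resident-type macrophages, fell from 163 ± 19.4 to 53.7 ± 8.63 CPM. Bhlhe40 and Bhlhe41, paralogous repressors, went in opposite directions, Bhlhe40 from 208 ± 12.8 to 469 ± 16.4 CPM and Bhlhe41 from 185 ± 26.9 to 78.7 ± 12.1 CPM.

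Of 41 genes of MAP kinase and cytokine feedback, 6 rose and 6 fell (12 and 15), and the largest changes were rises. Together 29.3% were called, against 25.0% of all tested genes. Cish, an SH2 protein induced by STAT signalling, stood at 1.08, 0.813 and 0.670 CPM in the untreated libraries and 50.3, 39.9 and 35.4 CPM in the IL-4 libraries, with every IL-4 library far above the untreated ones. Socs1 rose 14.1-fold, Dusp4, a phosphatase of ERK, 4.43-fold, from 32.6 ± 5.10 to 145 ± 22.99 CPM, and Dok2, an adaptor that restrains tyrosine kinases, 2.51-fold. Socs2, chosen after its values were seen, rose from 1.50 ± 1.15 to 11.7 ± 3.02 CPM. Dusp16 fell 1.96-fold. The 6 falls were 3 without untreated replicate 3 or without IL-27 replicate 1, 2 or 3 in turn. Among 17 immediate early genes, which respond to handling as well as to signals, 4 rose and 2 fell (6 and 5). Ier3, a survival factor, rose 4.23-fold, and Zfp36, which destabilises cytokine mRNA, from 88.6 ± 5.33 to 144 ± 5.72 CPM. Jun rose from 211 ± 14.1 to 284 ± 28.2 CPM and Ier5 fell from 147 ± 3.84 to 108 ± 6.04 CPM. The 2 falls were 1 without untreated replicate 1 or untreated replicate 3 and 4 without IL-4 replicate 1.

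Chemokines split by gene: of 16 tested, 7 rose and 5 fell (8 and 6). Ccl2 and Ccl7, which attract monocytes, rose from 7.80 ± 0.242 to 18.96 ± 3.03 CPM and from 4.55 ± 0.952 to 15.8 ± 4.42 CPM. Cxcl16, a transmembrane chemokine for T cells, fell 2.61-fold, from 114 ± 11.9 to 43.7 ± 2.48 CPM, and Ccl3, an inflammatory chemokine, from 38.04 ± 0.363 to 16.8 ± 1.92 CPM. Ccl22, a ligand of Ccr4, rose to a low level, from 0.518 ± 0.188 to 1.82 ± 0.285 CPM. Ccl17, its partner ligand, stood at 0.0278, 0 and 0 CPM untreated and 1.29, 0.774 and 0.687 CPM after IL-4, so that it was nearly absent untreated and below 1.5 CPM in every IL-4 library. Both genes were picked after their values were seen. The 7 rises were 4 without untreated replicate 2 or IL-4 replicate 3. Of 14 chemokine and chemoattractant receptors, 3 rose and 6 fell (4 and 8). Besides Cx3cr1, Cxcr4 fell 3.62-fold, from 181 ± 24.8 to 49.8 ± 6.31 CPM, and Ccrl2, a receptor that binds chemerin, fell from 44.4 ± 2.17 to 14.3 ± 1.23 CPM. Cxcr3 fell from 3.60 ± 0.930 to 0.589 ± 0.251 CPM.

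Of 35 toll-like receptors, nucleic acid sensors and adaptors, 1 rose and 13 fell (4 and 21), with a median log2 change of -0.40. Tlr2, which senses bacterial lipoproteins, stood at 67.6, 45.8 and 59.5 CPM in the untreated libraries and 7.04, 7.64 and 8.91 CPM in the IL-4 libraries, and Cd14, a co-receptor for lipopolysaccharide, at 344, 365 and 369 CPM untreated and 60.6, 54.7 and 58.1 CPM after IL-4. Each IL-4 library was below each untreated library, and Tlr2 fell 7.32-fold and Cd14 6.21-fold. The endosomal receptors Tlr7 and Tlr9, chosen after their values were seen, fell from 228 ± 74.7 to 68.5 ± 24.2 CPM and from 40.9 ± 8.04 to 11.3 ± 2.79 CPM. Nlrp3, the inflammasome sensor, fell 2.46-fold. The 1 rise was Ripk2, a kinase downstream of NOD receptors, from 15.1 ± 0.201 to 33.9 ± 2.20 CPM, and there were 2 without IL-4 replicate 1.

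Of 29 C-type lectins and siglecs, 7 rose and 11 fell (8 and 17). The rises included Mrc1 and Mgl2, a galactose-binding lectin that stood at 1.95, 1.33 and 2.73 CPM untreated and 107, 91.3 and 92.7 CPM after IL-4, with no overlap between groups. The falls included Clec4d, Clec4e and Clec4n. The 7 rises were 4 without IL-4 replicate 2 and 3 without IL-4 replicate 3. Among 28 scavenger and efferocytosis receptors 4 rose and 8 fell (6 and 13). Olr1, a receptor for oxidised LDL, rose from 0.485 ± 0.141 to 3.10 ± 0.202 CPM, while Mertk, a receptor for apoptotic cells, fell from 206 ± 16.4 to 119 ± 6.97 CPM, and its bridging ligand Gas6 from 264 ± 50.2 to 87.6 ± 10.1 CPM. Of 20 complement genes, 1 rose and 3 fell (3 and 7), so that 20.0% were called, against 25.0% of all tested genes. The rise was Itgax, also complement receptor 4, and there were 2 without untreated replicate 2. C5ar1, the receptor for C5a, fell 1.93-fold. Vsig4, a receptor for C3 fragments, fell from 1.10 ± 0.175 to 0.317 ± 0.178 CPM with an adjusted p of 0.0468, which was 0.0501 to 0.127 with any library but IL-27 replicate 1 left out. Of 26 TNF superfamily genes, 1 rose and 5 fell (3 and 8), so that 23.1% were called, against 25.0% of all tested genes. Tnf itself fell from 12.7 ± 0.863 to 7.07 ± 0.611 CPM, Tnfrsf14, a receptor for LIGHT and BTLA, from 57.5 ± 6.48 to 25.1 ± 2.996 CPM, and Tnfsf12, TWEAK, from 43.7 ± 0.933 to 32.8 ± 1.34 CPM. Cd40, the receptor for T cell help, rose from 2.34 ± 0.628 to 5.76 ± 1.25 CPM. Fcgr2b, the inhibitory receptor for IgG and no member of these lists, was chosen after its values were seen and rose 3.12-fold, from 143 ± 19.6 to 448 ± 29.01 CPM.

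Of 32 iron and haem genes, 2 rose and 10 fell (10 and 16). Tfrc, the transferrin receptor for iron uptake, stood at 84.9, 56.98 and 75.4 CPM in the untreated libraries and 232, 391 and 353 CPM in the IL-4 libraries. The lowest IL-4 library, replicate 1, was well above the highest untreated one, a rise of 4.49-fold (adjusted p = 5.10e-05). Besides Slc40a1 and Fth1, Slc11a1, the phagosomal metal transporter NRAMP1, fell 3.12-fold, from 409 ± 75.02 to 131 ± 21.6 CPM, and Ncoa4, the receptor for ferritin degradation, from 273 ± 20.9 to 155 ± 15.5 CPM. Ftl1, the ferritin light chain, was not called (12247 ± 202 to 11288 ± 107 CPM). The 2 rises were 6 without untreated replicate 2.

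Adhesion, fusion and matrix genes changed in both directions. Of 35 integrins and adhesion molecules, 6 rose and 10 fell (12 and 14). Itgb3, the beta chain of the vitronectin receptor, stood at 120.0, 149 and 125 CPM in the untreated libraries and 451, 316 and 354 CPM in the IL-4 libraries, with IL-4 replicate 1 the highest and no overlap. Cd44, the hyaluronan receptor, rose 1.85-fold, and Itga9, an alpha chain that binds tenascin and osteopontin, fell 2.68-fold. The 10 falls were 5 without IL-4 replicate 2 or IL-4 replicate 3. Of 28 macrophage fusion genes, 10 rose and 1 fell (17 and 6), Ocstamp and Cdh1 being the largest rises. The fall was Sirpa, and the count was 5 without IL-4 replicate 1 and 0 with untreated replicate 2, IL-4 replicate 2 or 3, or IL-27 replicate 1, 2 or 3 left out in turn. Of 39 genes of matrix and pericellular proteolysis, 10 rose and 9 fell (15 and 17). The collagenases Mmp8 and Mmp13 rose from 1.47 ± 0.256 to 8.94 ± 0.471 CPM and 5.85 ± 0.863 to 30.2 ± 10.5 CPM, and Tgfbi and Fn1, secreted ligands of integrins, from 196 ± 11.8 to 496 ± 92.2 CPM and 518 ± 126 to 1118 ± 287 CPM. Mmp8 is also a neutrophil marker, and the neutrophil list summed to 6.08 to 7.23 CPM untreated and 11.001 to 13.587 CPM after IL-4, with Mpo at 0 in all 6 libraries. Of its 3 tested members Mmp8 rose and S100a8, a calcium-binding protein of neutrophils, fell (4.09 ± 0.599 to 2.28 ± 0.625 CPM), and the part of such cells was not tested. Mmp14, a membrane-bound collagenase, fell 2.53-fold and Thbs1, thrombospondin-1, 2.17-fold. Mmp13 and Fn1 were chosen after their values were seen, and in Fn1 and Tgfbi IL-4 replicate 1 was the highest library.

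Of 15 coagulation genes, 6 rose and 4 fell (6 and 5). Thbd and Procr, thrombomodulin and the receptor that together activate protein C, fell from 26.6 ± 1.88 to 10.4 ± 0.525 CPM and 40.4 ± 1.94 to 17.8 ± 1.21 CPM. F13a1, the transglutaminase subunit of factor XIII, fell from 6.69 ± 0.818 to 1.69 ± 0.276 CPM, and was chosen after its values were seen. F2rl2, a thrombin receptor, rose from 0.232 ± 0.125 to 3.01 ± 0.364 CPM. Of 37 growth factors and TGF-beta superfamily genes, 5 rose and 9 fell (7 and 17). Vegfa, the angiogenic ligand of Flt1, stood at 79.7, 80.99 and 84.7 CPM in the untreated libraries and 25.3, 25.5 and 29.2 CPM in the IL-4 libraries, which put it on the opposite side to its receptor Flt1. Vegfa fell 3.07-fold. Smad3, a transducer of TGF-beta signals, fell 3.60-fold and Tgfbr2, the type II receptor, 1.78-fold, while Hbegf, an EGF receptor ligand, rose 2.78-fold.

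Of 41 G-protein coupled receptors for lipids, nucleotides and metabolites, 10 rose and 14 fell (11 and 20). P2ry1, an ADP receptor, rose from 21.5 ± 2.03 to 57.7 ± 6.07 CPM, and Ltb4r1, the high-affinity leukotriene B4 receptor chosen after its values were seen, from 0.267 ± 0.0693 to 3.22 ± 0.989 CPM. Ptafr, the receptor for platelet-activating factor, fell 2.74-fold, from 618 ± 82.7 to 226 ± 22.7 CPM, and S1pr1, a receptor for sphingosine phosphate, 2.89-fold, from 32.6 ± 1.25 to 11.3 ± 1.35 CPM. Of 22 eicosanoid enzymes, 3 rose and 5 fell (7 and 7). Ptgs1, the cyclooxygenase COX-1, stood at 22.5, 22.8 and 21.6 CPM in the untreated libraries and 154, 132 and 126 CPM in the IL-4 libraries, without overlap, and rose 6.14-fold (adjusted p = 5.37e-06). Tbxas1, thromboxane synthase, rose from 136 ± 22.3 to 326 ± 35.4 CPM. Hpgds, the haematopoietic prostaglandin D synthase, fell from 249.6 ± 38.4 to 106 ± 22.3 CPM, as did Hpgd above.

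Of 23 cytosolic aminoacyl-tRNA synthetases and their cofactors, which charge tRNAs, 18 rose and 0 fell (21 and 1), with a median log2 change of 0.70. Yars stood at 22.7, 26.6 and 22.99 CPM in the untreated libraries and 64.9, 51.9 and 56.6 CPM in the IL-4 libraries, and Rars at 63.98, 56.2 and 63.7 CPM untreated and 131, 147 and 141 CPM after IL-4. Both were higher in every IL-4 library, by 2.40-fold and 2.28-fold, and Lars and Iars by 1.63-fold and 1.80-fold. Of 34 enzymes of purine and pyrimidine synthesis, 21 rose and 1 fell (27 and 1), with a median of 0.63. Dut, which clears dUTP, rose 4.43-fold, Rrm2, the small subunit of ribonucleotide reductase, 3.06-fold, from 32.2 ± 6.54 to 98.6 ± 6.21 CPM, and Prps1, which makes the ribose donor PRPP, 2.77-fold. The fall was Ctps2, a CTP synthetase, by 0.25 on the log2 scale (adjusted p = 0.0466). Its p was 0.0509 to 0.141 with any library but untreated replicate 2 left out, which makes the count 0. Of 25 amino acid transporters, 7 rose and 7 fell (8 and 8). The cationic transporters Slc7a2 and Slc7a1 rose from 23.2 ± 3.59 to 396 ± 12.8 CPM and 20.8 ± 1.10 to 74.05 ± 3.99 CPM, and the large neutral amino acid transporters Slc7a5 and Slc7a8 2.47-fold and 2.02-fold. Slc43a2, another carrier of large neutral amino acids, fell 1.99-fold.

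**Figure D4:**
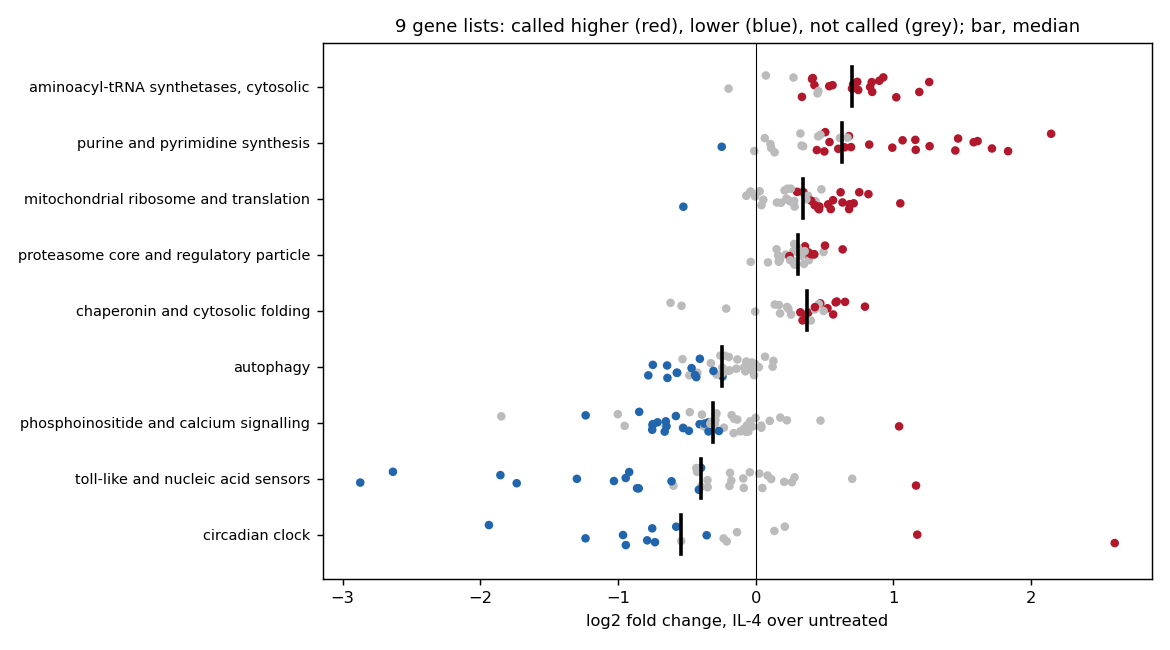
Log2 fold change of IL-4 over untreated for each tested member of 9 gene lists, red where called higher, blue where called lower and grey where not called, with the list's median as a black bar. Aminoacyl-tRNA synthetases (median 0.70) and purine and pyrimidine synthesis (0.63) lie mostly to the right of 0, and autophagy (-0.24) and the circadian clock (-0.54) mostly to the left.

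Of 41 mitochondrial ribosome and translation genes, 18 rose and 1 fell (29 and 1). Mrps18b rose 2.07-fold and Gfm1, an elongation factor, 1.55-fold, while Mrps6 fell from 17.1 ± 0.720 to 11.9 ± 0.665 CPM. The 18 rises were 10 without untreated replicate 1 and 11 without untreated replicate 3. Of 30 mitochondrial import and chaperone genes, 10 rose and 0 fell (22 and 0). Hspa9, mitochondrial HSP70, rose from 205 ± 9.59 to 356 ± 17.5 CPM, Hspd1, HSP60, from 105 ± 17.00 to 176 ± 31.7 CPM, Timm50, of the inner membrane translocase, from 27.2 ± 6.21 to 46.8 ± 6.10 CPM and Timm8a1, an intermembrane space chaperone, from 3.88 ± 1.35 to 9.92 ± 1.72 CPM. The 10 rises were 6 without untreated replicate 1 or untreated replicate 3. Of 31 proteasome subunits, 10 rose and 0 fell (29 and 0), with a median of 0.31. Psmd14, the deubiquitinase of the lid, stood at 47.7, 50.5 and 47.9 CPM in the untreated libraries and 73.4, 78.7 and 74.4 CPM in the IL-4 libraries, a rise of 1.55-fold without overlap. The 10 rises were 5 without untreated replicate 1, 17 without untreated replicate 2, 4 without untreated replicate 3 and 6 without IL-27 replicate 3. Of 26 chaperonin and cytosolic folding genes, 12 rose and 0 fell (22 and 1), with Cct3 and Cct6a, subunits of the TRiC ring, up 1.73-fold and 1.57-fold.

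Of 52 genes of phosphoinositide and calcium signalling, 1 rose and 17 fell (2 and 29), with a median of -0.31. Nfatc2, a calcium-activated transcription factor, fell from 15.5 ± 2.10 to 6.60 ± 0.972 CPM, Dgka, which removes diacylglycerol, from 21.4 ± 2.69 to 12.7 ± 0.826 CPM, and Pik3ap1, the adaptor BCAP, from 594 ± 72.7 to 362 ± 41.2 CPM. The rise was Prkcd, protein kinase C delta, from 436 ± 67.5 to 897 ± 152 CPM, and there were 2 rises without IL-4 replicate 1. Of 53 sphingolipid and phospholipid enzymes, 4 rose and 12 fell (5 and 30). Lpin2, a phosphatidate phosphatase, fell 2.13-fold, Plpp3, a lipid phosphate phosphatase, 2.13-fold, and Fabp4, a fatty acid carrier, 1.85-fold, while Agpat3, an acyltransferase, rose 1.73-fold. The 4 rises were 2 without untreated replicate 3 or IL-4 replicate 3, and the 12 falls were 19 without IL-4 replicate 1.

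None of 39 autophagy genes rose and 12 fell (0 and 23), with a median log2 change of -0.24. Ulk2, a kinase that starts autophagy, stood at 103, 95.4 and 105 CPM in the untreated libraries and 62.5, 68.8 and 63.6 CPM in the IL-4 libraries. Nbr1, a cargo receptor, stood at 151, 163 and 154 CPM untreated and 102, 105 and 108 CPM after IL-4. All IL-4 libraries were below all untreated libraries in both genes, with falls of 1.56-fold and 1.48-fold (adjusted p = 5.28e-04 and 4.84e-04). Atg14, of the lipid kinase complex, and Map1lc3a, which coats autophagosomes, fell 1.49-fold and 1.56-fold. The 12 falls were 6 without IL-4 replicate 2 or IL-4 replicate 3.

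Of 17 circadian clock genes, 2 rose and 9 fell (2 and 10), with a median log2 change of -0.54. Dbp, an output factor of the clock, stood at 20.1, 20.1 and 19.3 CPM in the untreated libraries and 5.72, 5.17 and 4.66 CPM in the IL-4 libraries. The groups were tight and far apart, a fall of 3.83-fold (adjusted p = 1.35e-05). Per3, a clock repressor chosen after its values were seen, fell from 10.6 ± 0.761 to 5.50 ± 1.07 CPM. The rises were Nfil3, which represses the sites that Dbp activates, and Bhlhe40. The labels give a treatment time for IL-4 but no harvest time for the untreated cells, so treatment and clock time at harvest cannot be told apart.

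Of 47 histone and DNA modifying enzymes, 12 rose and 4 fell (20 and 14). Uhrf1, which directs maintenance methylation of DNA, stood at 19.6, 26.7 and 21.2 CPM in the untreated libraries and 108, 73.8 and 76.3 CPM in the IL-4 libraries, with IL-4 replicate 1 the highest and no overlap, and rose 3.82-fold. Ezh2, the Polycomb methyltransferase, rose 2.17-fold and Tet2, a 5-methylcytosine oxidase, 1.38-fold, while Kdm5b, a histone demethylase, fell 1.94-fold. The 4 falls were 2 without untreated replicate 1 or IL-4 replicate 3, 1 without IL-4 replicate 2 and 8 without IL-4 replicate 1. Of 37 apoptosis and survival genes, 11 rose and 9 fell (15 and 13). Ccnd1, cyclin D1, stood at 46.6, 43.7 and 49.5 CPM untreated and 139, 140.1 and 139 CPM after IL-4, and Cdkn1a, the inhibitor p21, at 62.8, 77.01 and 57.7 CPM untreated and 204, 142 and 146 CPM after IL-4. Both rose, 2.99-fold and 2.49-fold, and Casp6, a caspase, rose 2.27-fold. Bmf, a BH3-only death protein, fell 2.97-fold. The 9 falls were 5 without untreated replicate 1, untreated replicate 3 or IL-4 replicate 2.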

How the data were processed

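The authors deposited whole-number counts per gene, made with fastp, HISAT2 and HTSeq on build GRCm39, per the submitters' processing notes, which give no versions. The deposited FPKM values scale the same counts by gene length and library size. No source used here states the strand setting. Counts were fitted with edgeR 4.0.16 in R 4.3.3 (quasi-likelihood test, TMM, 9 libraries, a term for group), with genes kept by filterByExpr at a minimum count of 10. FPKM was used only for levels per length. The common dispersion was 0.0272, and the SE is the log2 change over the square root of F. The procedure was tested on simulated counts drawn independently for each library. They lack the deviation that untreated replicate 2 and IL-4 replicate 1 share, so that test does not cover it. Named genes are the 20 largest changes each way (mean of at least 5 CPM, no overlap, no unnamed gene models), the 10 largest gains and losses in CPM, and up to 4 members of each of 37 lists by adjusted p, plus the leading member in the rarer direction, with 19 more chosen after their values were seen. Some of these genes and 1 of the lists are not reported here. The members, lists and alternatives were chosen with earlier results of these data known. Alternatives were DESeq2 1.42.0, RLE factors, other filters, other sets of libraries, the library term and a replicate block. Promoters come from RefSeq (GRCm38.p6), with 10083 of 12587 tested genes matched by NCBI gene identifier.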

Additional observations from a re-analysis of the deposited data

How the results depend on the processing

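Of the 9 counts and shares over all genes or lists that moved by more than 1.5 times or past their interval, 7 came from fits that set the 2 libraries apart. With a term for them 3532 genes rose and 3283 fell, with both left out 3061 and 2848, and a fit of the untreated and IL-4 libraries alone gave 984 falls. Distinct list members called were 251 each way, 405 higher and 446 lower with the term, and 414 lower with both libraries left out. The share of all tested windows with TTC, any 4 bases and GAA was 5.49% when 50 bases after the start were added. Leaving out each library in turn gave 1214 to 1827 rises and 1066 to 1839 falls, and at 2-fold or more 473 to 510 and 377 to 495. DESeq2 called 1952 and 1888. No value reversed. Of 208 genes chosen by the rules for naming or added, 201 were called in every alternative with a value, and Lpl, Flna, Cd36, Sirpa, Prdx1, Ctps2 and Vsig4 were not. Deviations of equal replicate numbers correlated at -0.78, -0.80 and 0.67 between IL-4 and untreated. The 2 libraries that stand apart carry unequal numbers and shape these values. Whether equal numbers mark shared cultures therefore cannot be told from them. With the replicate number as a block, 1207 genes rose and 1101 fell, and 461 and 384 at 2-fold or more. Genes near 1 CPM or below, such as Ccl17 and Vsig4, rest on few counts.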

Other observations

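The deposited table assigns genes to KEGG pathways and transcription factor families, and 297 pathways held at least 15 tested genes. The pathways and genes of this paragraph were chosen after their values were seen, and none was tested as a set. In DNA replication 26 of 35 genes rose and 0 fell (33 and 0 with the library term), in mismatch repair 13 of 22 and 0 (20 and 0), and in homologous recombination 17 of 39 and 0 (31 and 0). Rpa2, which coats single-stranded DNA, stood at 15.2, 13.8 and 15.7 CPM in the untreated libraries and 30.7, 29.5 and 32.5 CPM in the IL-4 libraries. Every IL-4 library was above every untreated library, with a rise of 2.08-fold. Pcna, the clamp of DNA polymerases, rose from 284 ± 13.6 to 499 ± 8.05 CPM. In the spliceosome 40 of 128 genes rose and 1 fell (86 and 6), Snrpa1 rising from 13.6 ± 0.721 to 27.3 ± 1.60 CPM. In RNA transport 48 of 151 rose and 4 fell (94 and 13), and Ran, the GTPase of nuclear transport, rose from 142 ± 6.60 to 267 ± 20.6 CPM. Falls outnumbered rises in RIG-I-like receptor signalling, with 0 of 46 rising and 12 falling (8 and 25). The same held for NF-kappa B signalling, with 11 of 90 rising and 26 falling (17 and 44). In either direction 26.1% of the RIG-I-like pathway were called, near the 25.0% of all tested genes, and 41.1% of the NF-kappa B pathway. The shares were 74.3% in DNA replication, 59.1% in mismatch repair, 43.6% in homologous recombination, 32.0% in the spliceosome and 34.4% in RNA transport.

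Of 893 genes with a deposited transcription factor family, 79 rose and 101 fell (152 and 260 with the library term). Together 20.2% were called, against 25.0% of all tested genes. The zinc finger family zf-C2H2 had 13 of 409 rising and 27 falling (38 and 96), below the 12.9% and 12.0% of all genes. In the ZBTB family of repressors 0 of 41 rose and 8 fell (1 and 19), while in the E2F family, which drives genes of S phase, 5 of 10 rose and 0 fell (7 and 1). In the bZIP family, which holds Batf3 and Nfil3, 12 of 43 rose and 7 fell (18 and 11), or 44.2%.

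Among 34 axon guidance receptors and ligands 2 rose and 7 fell (5 and 12), so that 26.5% were called, against 25.0% of all tested genes. Sema4d, a semaphorin that binds plexin B receptors, stood at 772, 941 and 764 CPM in the untreated libraries and 377, 314 and 325 CPM in the IL-4 libraries, with untreated replicate 2 and IL-4 replicate 1 the highest of their groups and no overlap. Sema4d fell 2.44-fold, Slit1 4.97-fold, from 5.90 ± 2.37 to 1.19 ± 0.473 CPM, and Plxna2, a semaphorin receptor, 2.10-fold, while Sema4b rose 1.94-fold. The 7 falls were 11 without IL-4 replicate 1.

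Of 56 glycan and glycosaminoglycan enzymes 4 rose and 9 fell (9 and 27), so that 23.2% were called, against 25.0% of all tested genes. B3gnt7, which extends keratan sulfate chains, stood at 6.76, 5.57 and 5.36 CPM in the untreated libraries and 48.7, 45.01 and 45.3 CPM in the IL-4 libraries, with no overlap, and rose 7.86-fold. Ndst1, an enzyme of heparan sulfate sulfation, fell 1.76-fold and Chst11, of chondroitin sulfation, 1.63-fold. The 9 falls were 4 without untreated replicate 1 and 5 without IL-4 replicate 2. Of 48 ion channels and pumps 7 rose and 12 fell (14 and 23), with Clcn5, an endosomal chloride exchanger, and Kcnk13, a potassium channel, up 2.49-fold and 1.77-fold, and Orai2, a calcium channel subunit, down 2.01-fold. The 12 falls were 7 without IL-4 replicate 2.

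Of 21 retinoid and vitamin D genes 5 rose and 4 fell (6 and 7). Dhrs9, a retinol dehydrogenase, rose 5.41-fold, from 8.005 ± 0.985 to 43.3 ± 5.51 CPM, Vdr, the vitamin D receptor, 2.03-fold, and Tgm2, a transglutaminase, from 244 ± 57.6 to 537 ± 147 CPM. Cyp27a1, the sterol 27-hydroxylase, fell 2.71-fold. The 4 falls were 1 without IL-4 replicate 2 or IL-4 replicate 3. Of 37 cyclic nucleotide signalling genes 4 rose and 7 fell (4 and 17), so that 29.7% were called, against 25.0% of all tested genes. Pde7b, a cAMP phosphodiesterase, fell 2.07-fold, Gngt2 and Gng2, G-protein gamma subunits, 2.12-fold and 1.94-fold, and Rap1gap2, an inactivator of Rap1, 3.18-fold, while Creb5, a cAMP response element factor, rose 1.49-fold. The 4 rises were 2 without untreated replicate 2 or either of the first 2 IL-27 replicates, and 1 without the third replicate of any group or IL-4 replicate 2.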
